A study of Mus musculus with 6 samples.

Results

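Serpins are a family of protease inhibitors, and 28 Serpin genes were read by 29 probes on 6 two-colour arrays of epididymal white fat. They were chosen by name, as every probe whose platform gene symbol starts with Serpin, out of 13409 genes that have a probe with 1 symbol on an array of 19200 probe numbers. The tested RNA was 1 pool from 6 male C57BL/6J mice injected with the beta3-adrenergic agonist CL-316,243 at 1 mg per kg body weight. Its control was 1 pool from 6 male C57BL/6J mice injected with saline. All mice were 12 weeks old and their fat was taken 3 hr after injection. The labels also write the compound as CL316,246 in one place. On arrays 1, 2 and 3 the CL-316,243 pool was hybridised in channel 1, and on arrays 4, 5 and 6 in channel 2. Since the same 2 pools were hybridised each time, a p-value given here measures the spread between arrays and not the spread between mice.

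A serpin works once. The target protease cleaves a bait loop of the inhibitor, which then changes shape and traps the enzyme in a covalent complex. Some members have lost this activity and carry hormones, fold collagen or act as signals. White fat is known as a source of several secreted serpins, among them Serpina12 (vaspin) and Serpinf1 (pigment epithelium-derived factor). Catecholamines act on fat cells through beta3-adrenergic receptors, which raise cyclic AMP and start the breakdown of stored fat.

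The 28 genes span clade A (7 genes, mostly secreted inhibitors and carriers), clade B (13 genes, mostly intracellular inhibitors) and clades C, D, F, G, H and I (8 genes). Serpina1a to Serpina1e were not analysed here. Every one of the 28 genes had values on enough arrays for the test, 20 of them on 6 arrays and 8 on 5 arrays. Values are the deposited log ratios of the pools, taken as log2. The ratio or mean given for a gene over arrays is limma's common ratio, which gives both channel assignments equal weight. For a gene without a value on every array it can differ from the plain mean of its array values. No source used here says which pool is the numerator, so ratios are called positive or negative and not up or down with the drug. In whole tissue, fewer cells of a type and less RNA per cell cannot be told apart.

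The promoter of Serpina1f is shown because this gene alone among the Serpin genes passed the test. It lies at chr12:103695480-103695779 on the minus strand (RefSeq, GRCm38.p6), 250 bases before and 50 bases after the annotated start, 5′ to 3′.
Serpina1f: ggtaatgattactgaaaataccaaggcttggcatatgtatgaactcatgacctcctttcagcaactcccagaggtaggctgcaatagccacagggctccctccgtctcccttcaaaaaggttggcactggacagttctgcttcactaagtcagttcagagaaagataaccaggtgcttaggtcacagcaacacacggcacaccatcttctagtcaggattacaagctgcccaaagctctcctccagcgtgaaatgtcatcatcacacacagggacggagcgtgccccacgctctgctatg

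RefSeq promoters of the same 300 bases matched 23 of the 28 genes, as 27 promoters. They were searched on both strands for 3 motifs, none of which contains another. The cyclic AMP response element TGACGTCA, the site of the CREB factors that act under beta-adrenergic receptors, was in 0 of these Serpin promoters and in 1.79% of all 32851 promoters. The AP-1 element TGACTCA was in the promoters of 2 Serpin genes, Serpinb7 and Serpinb8, and in 5.20% of all promoters. The C/EBP element TTGCGCAA was in the promoter of Serpina5 and in 0.183% of all promoters. The Serpina1f window holds none of these letters, which says nothing of the factors themselves. The stretches around the matches are shown with the motif in capitals, read on the plus strand of GRCm38.p6. They stand at chr1:107422632-107422662 (Serpinb7), chr1:107589971-107590001 and chr1:107590007-107590037 (Serpinb8) and chr12:104100863-104100890 (Serpina5). The AP-1 letters appear in them as the opposite strand, TGAGTCA.
Serpinb7: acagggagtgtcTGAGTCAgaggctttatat
Serpinb8, upstream site: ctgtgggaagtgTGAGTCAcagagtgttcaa
Serpinb8, downstream site: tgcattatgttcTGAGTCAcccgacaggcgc
Serpina5: aaacaatgTTGCGCAAggaaaacatgat

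Serpina1f was the one Serpin gene past the adjusted threshold. It is a mouse relative of alpha-1-antitrypsin that RefSeq also names epserin, known from the male reproductive tract. Its ratios were 5.05, 6.01 and 2.20 on arrays 1, 2 and 3, and 5.47, 5.43 and 3.95 on arrays 4, 5 and 6. All 6 were positive, array 2 was highest and array 3 lowest, and the arrays of both orientations overlapped. The mean log2 ratio was 4.68 ± 0.41 (SE, n = 6 arrays; limma, adjusted p = 0.000618 over all 13192 genes tested), with a 95% interval of 3.75 to 5.61. If the same pool is the numerator on all arrays, this is a 25.7-fold difference between the pools. The arrays with the CL-316,243 pool in channel 1 averaged 4.42 and those with it in channel 2 averaged 4.95. limma's channel term for Serpina1f was -0.26 (adjusted p = 0.84). With the sign turned on the arrays that held the CL-316,243 pool in channel 1, the Serpina1f ratio was 0.26 (limma, adjusted p = 0.84). That ratio is the channel term with its sign reversed, and not a separate check. By mean ratio Serpina1f ranked 3 of all genes tested. On single arrays it ranked 3, 2, 42, 6, 4 and 4 among the genes read on arrays 1 to 6.

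**Figure D1:**
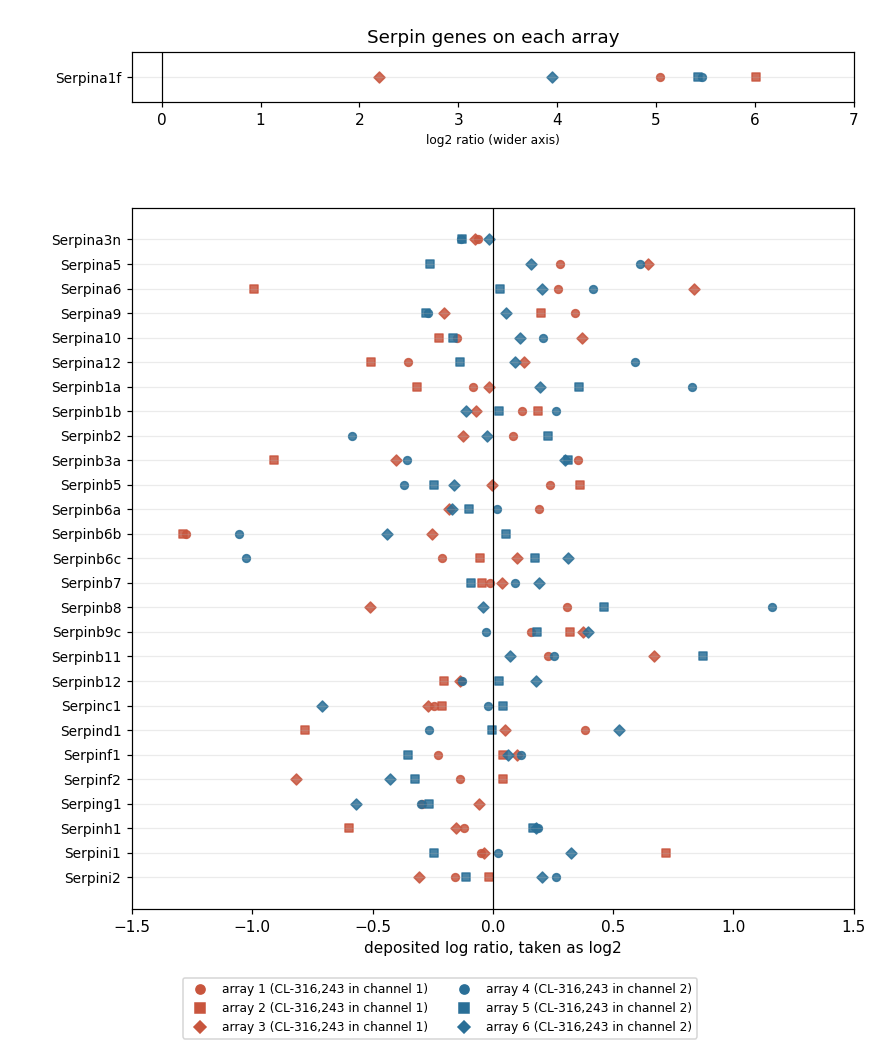
Log2 ratio of each of the 28 Serpin genes (rows, by clade) on each array, with colour for the channel that held the CL-316,243 pool and symbol for the array; the upper panel has a wider axis. Serpina1f lies between 2.20 and 6.01 on all 6 arrays, while the means of the other 27 genes lie between -0.71 and 0.42.

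The place of this value in the table needed a check, because the deposited columns have dropped spots without keeping their rows. With 29, 724, 38, 169, 8 and 1 spots missing on arrays 1 to 6, the Serpina1f probe (number 5868, accession AK002574) could sit on any of 30, 725, 39, 170, 9 and 2 deposited values. The value assigned to it was the highest of these on every array. On array 5 the next highest of the 9 was 0.43, and on array 6 the other value was -1.04. On arrays 1, 3 and 4 the next highest were 0.61, 0.78 and 1.44. Array 2, which lost the most spots, had a next highest value of 3.06 and a posterior of 0.989 for the assignment, and the other arrays had 1. Of the probes numbered next to it, Svep1 at 5867 averaged -0.19 and Rgs19 at 5869 averaged -0.39. The assignment uses likeness between arrays, and so raises the likeness of the values it assigns.

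**Figure D2:**
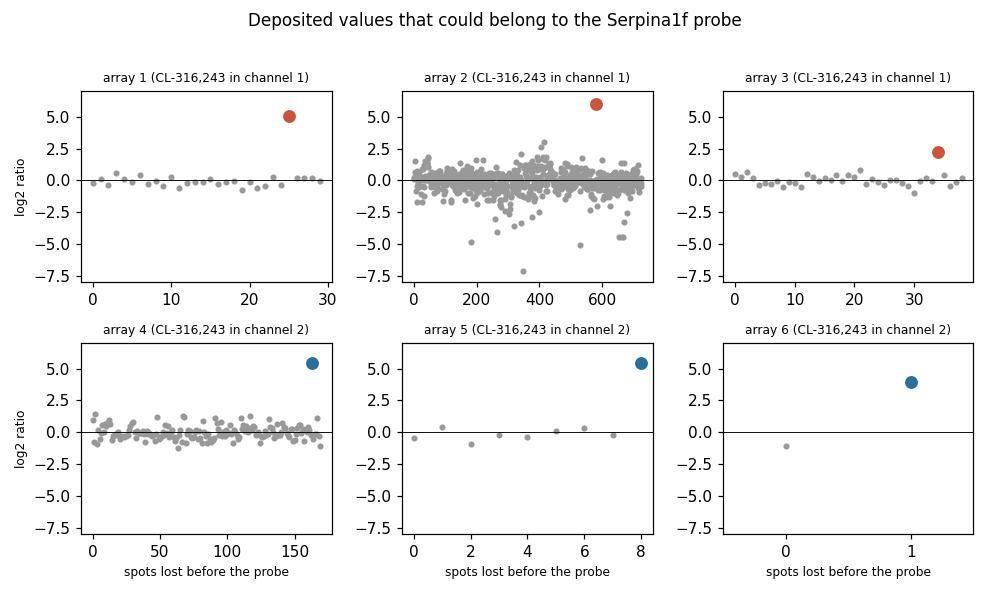
Deposited log2 ratios that could belong to the Serpina1f probe on each array, against the number of spots that would have been lost before it; the large coloured point is the value assigned. It is the highest point on all 6 arrays, at 3.95 against -1.04 on array 6, where only 2 values are possible.

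The name rests on 1 probe. Of the genes with exactly 2 probes, 952 pairs had ratios that correlated weakly (Spearman's rho = 0.042 across genes, which are not independent replicates). In 14 of these pairs 1 probe had a mean ratio of at least 1 in size, and in 9 of the 14 the other probe had the same sign. Serpina1f has no other probe on which its name could be looked at in this way.

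Only 1 of the 28 Serpin genes passed an adjusted p of 0.05 in limma's test, against 3.05% of all genes tested. At an unadjusted p under 0.05 the count was 5 of 28 (Serpina1f, Serpinb6b, Serpinb11, Serpinb9c and Serping1), against 18.4% of all genes. At least 1.5-fold in size by the plain mean of the array values, with one sign on every array, the count was 1 of 28, against 3.36% of all genes. These shares lie near those of all genes. The channel term passed for 0 of 28 Serpin genes, against 0.00758% of all genes, and its lowest adjusted p was 0.44.

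The other 27 genes had a median ratio of -0.03, with 10 positive and 17 negative. Over all genes tested the median was -0.011 and 47.8% were positive. Of the 27, 26 lay within 0.5 of zero, as did 93.2% of all genes. Their standard deviations over arrays were 0.049 to 0.62 and their adjusted p-values 0.070 to 0.98. For 22 of the 27 the 95% interval left out a 1.5-fold difference in either direction, against 74.2% of all genes, and for 26 it left out a 2-fold difference. The exception at 2-fold was Serpinb6b. These intervals cover the spread between arrays of the same 2 pools, and ratios do not show whether a probe had signal. All of these genes but Serpinb12 rest on a single probe. The weak correlation between probes of a gene, given above for the Serpina1f name, limits them too.

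**Figure D3:**
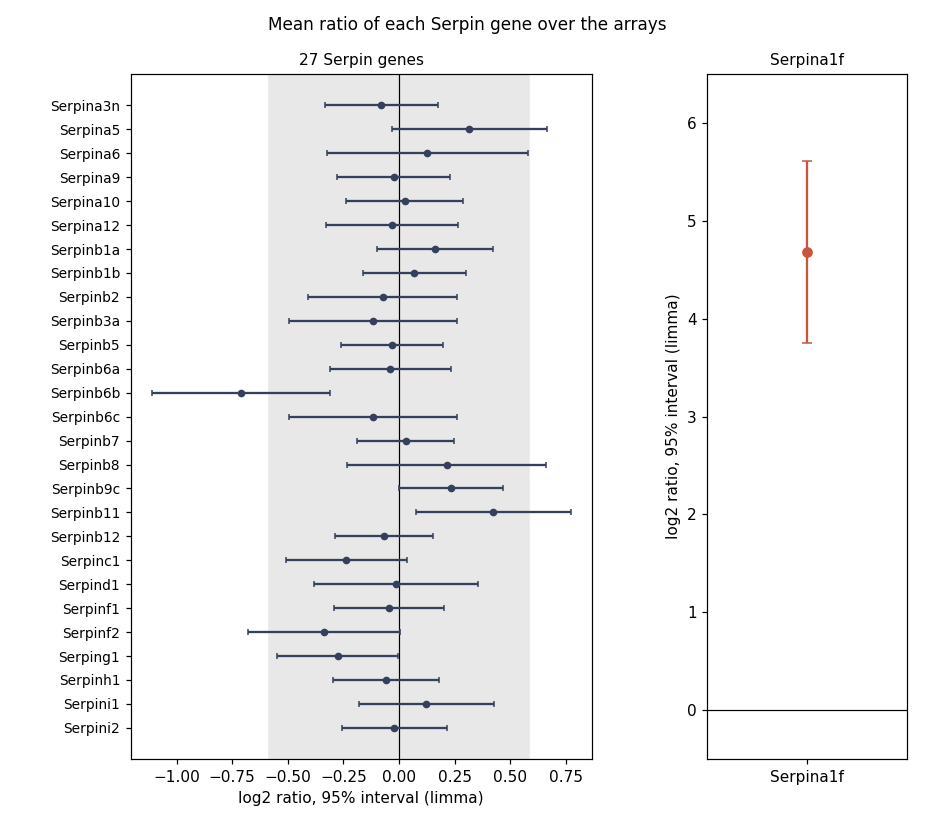
Mean log2 ratio of each Serpin gene with its 95% limma interval; the grey band marks 1.5-fold in either direction and Serpina1f has a panel of its own. The intervals of 22 of the 27 genes stay inside the band, and that of Serpina1f runs from 3.75 to 5.61.

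Clade A holds the secreted inhibitors and hormone carriers encoded beside alpha-1-antitrypsin. Besides Serpina1f its 6 genes had 3 positive and 3 negative ratios and a median of 0.00029. Serpina12 (vaspin), an adipokine and inhibitor of a tissue kallikrein, had ratios of -0.35, -0.51 and 0.13 on arrays 1, 2 and 3, and 0.59, -0.14 and 0.09 on arrays 4, 5 and 6. Its values fell on both sides of zero in each orientation, with a mean of -0.03 ± 0.13 (SE, n = 6 arrays; limma, adjusted p = 0.93). Serpina3n, an inhibitor of granzyme B and leukocyte proteases in the mouse, was -0.06 and -0.07 on arrays 1 and 3 and -0.13, -0.13 and -0.015 on arrays 4, 5 and 6. All 5 were negative and the spread was the smallest of the family (SD 0.049), and the mean of -0.08 ± 0.11 (SE, n = 5 arrays; limma, adjusted p = 0.76) did not differ from zero beyond its error.

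Serpina5, the protein C inhibitor, had the highest ratio of these 6 genes and was positive on 4 of 5 arrays. Its mean was 0.32 (limma, adjusted p = 0.32), with array values from -0.26 to 0.64. Serpina6, the corticosteroid-binding globulin, varied most: its ratios ran from -0.99 on array 2 to 0.84 on array 3, around a mean of 0.13. Serpina10, the inhibitor that works with protein Z on factor X, averaged 0.03. Serpina9, known in human from germinal centre B cells, averaged -0.02.

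In the order of the RefSeq GRCm38.p6 annotation these clade A genes lie in 1 cluster with Serpina1f. Its nearest neighbours with a named probe were Serpina6 and Serpina10 on one side and Serpina9 and Serpina12 on the other, with ratios of 0.13, 0.03, -0.02 and -0.03. The lower bound of the Serpina1f interval, 3.75, lay above the upper bounds of all these, the highest of which was 0.58 (Serpina6). Serpina1a to Serpina1e, Serpina11 and Serpina16 lie between them and were not analysed here.

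Clade B serpins act mostly inside cells, where they guard against leaked lysosomal and granule proteases. Of the 13 genes 6 were positive and 7 negative, where 47.8% of all genes were positive. Of the 13, 0 passed limma's adjusted threshold and 3 had an unadjusted p under 0.05, beside 3.05% and 18.4% of all genes. Serpinb6b, a mouse paralogue of the cathepsin G inhibitor Serpinb6a, came closest. Its ratios were -1.28, -1.29 and -0.25 on arrays 1, 2 and 3, and -1.06, 0.06 and -0.44 on arrays 4, 5 and 6. Array 5 was the one value above zero, and the mean was -0.71 ± 0.18 (SE, n = 6 arrays; limma, adjusted p = 0.070). Without array 3 the mean was -0.88 and the gene passed (limma, adjusted p = 0.025). Without array 5, which held the positive value, the mean was -0.84 and the gene did not pass (limma, adjusted p = 0.0997).

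Of the paralogues of Serpinb6b, Serpinb6a averaged -0.04 with values from -0.18 to 0.19, and Serpinb6c averaged -0.12 with values from -1.03 on array 4 to 0.31 on array 6. On array 4 Serpinb6c lay close to Serpinb6b, at -1.06. The interval of Serpinb6b was -1.111 to -0.309, that of Serpinb6a -0.312 to 0.235 and that of Serpinb6c -0.496 to 0.263. These intervals overlap, but overlap does not decide whether the genes differ, and a difference between them was not tested. Paralogues of this clade are alike in sequence, and whether a spot also captured RNA of a relative was not tested.

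Serpinb11, a clade B member of epithelia, was positive on each of its 5 arrays: 0.23 and 0.67 on arrays 1 and 3, and 0.25, 0.87 and 0.07 on arrays 4, 5 and 6. The arrays of both orientations overlapped, and the mean was 0.42 ± 0.15 (SE, n = 5 arrays; limma, adjusted p = 0.19). Serpinb9c, a relative of the granzyme B inhibitor, was positive on 5 of 6 arrays with a mean of 0.23 (limma, adjusted p = 0.27). Serpinb8, which inhibits furin in human, had a ratio of 0.21, beside a plain mean of its array values of 0.28. Its values ran from -0.51 on array 3 to 1.16 on array 4.

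The remaining clade B genes stayed near zero on average. Serpinb1a, an inhibitor of neutrophil elastase, averaged 0.16 and its paralogue Serpinb1b 0.07. Serpinb2, an inhibitor of urokinase that macrophages make, averaged -0.07. Serpinb3a and the epithelial members Serpinb5 (maspin) and Serpinb7 (megsin) averaged -0.12, -0.03 and 0.03. Serpinb12 was the one gene with 2 probes, and its mean was -0.07 with array values from -0.20 to 0.18. Its probes differed: probe 13250 averaged -0.18 and was negative on 5 of 6 arrays, and probe 18598 averaged 0.047 and was negative on 2. With 1 probe for the gene, the ratio was -0.18 (limma, adjusted p = 0.41).

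Clades C to I hold the plasma inhibitors of clotting, fibrinolysis and complement, and the collagen chaperone. Of these 8 genes 7 were negative and 1 positive, with a median of -0.05, where 47.8% of all genes were positive. Whether the 8 differ from that share was not tested. Serping1, the C1 inhibitor of complement and of the contact system, was negative on each of its 5 arrays: -0.29 and -0.06 on arrays 1 and 3, and -0.30, -0.27 and -0.57 on arrays 4, 5 and 6. The mean was -0.28 ± 0.12 (SE, n = 5 arrays; limma, adjusted p = 0.26), and its interval of -0.55 to -0.0040 left out a 1.5-fold difference. Serpinf2, which inhibits plasmin, averaged -0.34 (limma, adjusted p = 0.28) and was negative on 4 of 5 arrays. Serpinc1, antithrombin, averaged -0.24 and was negative on 5 of 6. Serpind1, heparin cofactor II, had a mean of -0.02 and ran from -0.78 on array 2 to 0.52 on array 6.

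Serpinf1, the pigment epithelium-derived factor that fat and stromal cells secrete, had ratios of -0.23, 0.04 and 0.10 on arrays 1, 2 and 3, and 0.12, -0.35 and 0.06 on arrays 4, 5 and 6. Both orientations held values on either side of zero, with a mean of -0.04 ± 0.11 (SE, n = 6 arrays; limma, adjusted p = 0.88). Serpinh1, the endoplasmic reticulum chaperone of collagen also called HSP47, was -0.12, -0.60 and -0.15 on arrays 1, 2 and 3, and 0.19, 0.17 and 0.18 on arrays 4, 5 and 6. Its values split by orientation without overlap, and the mean was -0.06 ± 0.11 (SE, n = 6 arrays; limma, adjusted p = 0.83). Serpini1 (neuroserpin) and Serpini2 (pancpin) averaged 0.12 and -0.02.

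**Figure D4:**
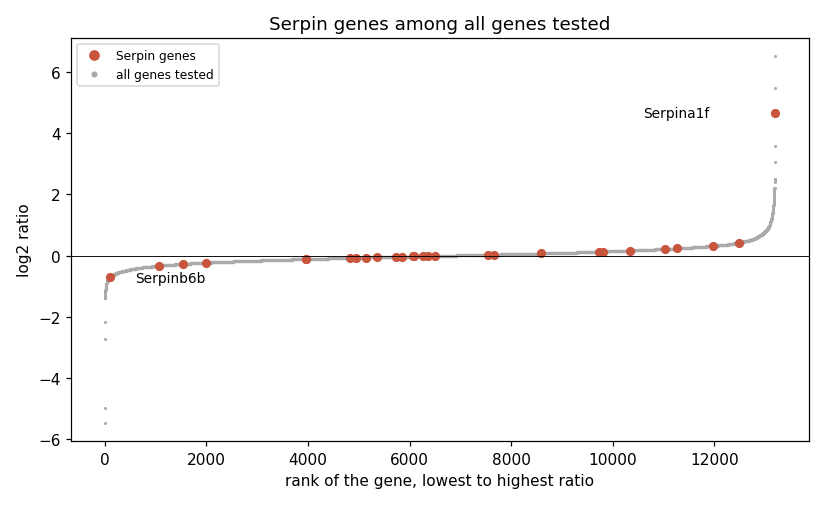
Mean log2 ratio of all 13192 genes tested (grey), ranked from lowest to highest, with the 28 Serpin genes in red. Serpina1f stands at rank 3 from the top at 4.68, 26 others lie within 0.5 of zero, and Serpinb6b lies in the lower tail at -0.71.

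The proteases that serpins inhibit and the molecules they bind were read from the same arrays, from a list of 70 genes of which 59 were tested. None of the 59 passed limma's adjusted threshold and 10 had an unadjusted p under 0.05, beside the 3.05% and 18.4% of all genes given for these thresholds. Their median ratio was -0.0047. Among 32 target proteases Casp1, the inflammatory caspase, had the lowest ratio at -0.81 ± 0.22 (SE, n = 5 arrays; limma, adjusted p = 0.093) and was negative on all 5. F10, clotting factor X, had the highest at 0.69, with array values from -0.11 to 1.99. Among 13 cofactors and receptors F3, the tissue factor that starts clotting, had a ratio of 0.79 ± 0.21 (SE, n = 4 arrays; limma, adjusted p = 0.10) and was positive on all 4. Among 14 other inhibitors and partners Anxa2, a cell surface receptor of the plasmin system, had 0.88 ± 0.27 (SE, n = 5 arrays; limma, adjusted p = 0.14). The Anxa2 value rested on array 3, at 2.84: without that array it was 0.33 (limma, adjusted p = 0.34). Without array 1 it was 1.44 and passed (limma, adjusted p = 0.012), but array 3 was then the one array left with the CL-316,243 pool in channel 1, and it is assumed to vary like the others.

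Serpina1f is known from the male tract, so markers of the tissues that lie against epididymal fat were read beside it. Of 22 male tract markers 11 were tested and 5 passed, against 3.05% of all genes, all with negative ratios, opposite in sign to Serpina1f. They were the seminal vesicle secretion genes Svs5 (-5.47), Svs2 (-4.98), Svs6 (-2.17) and Svs4 (-1.16), and Pate4 (-2.73). Svs5 was -6.30, -7.02 and -3.15 on arrays 1, 2 and 3, and -6.35, -6.27 and -3.75 on arrays 4, 5 and 6, so arrays 3 and 6 were nearest zero for it as they were for Serpina1f. Arrays 3 and 6 were also nearest zero for Svs4, Svs6 and Pate4. For Svs2 they were not: arrays 3 and 5 were nearest, at -2.86 and -4.78, and array 6 was -5.35. Over all deposited values array 3 had the narrowest range of the 6 arrays, -3.15 to 5.04. The other male tract markers tested did not pass and lay on both sides of zero. Lcn5 had 0.19, Lcn8 0.13, Adam7 0.15, Defb1 0.08, Eppin -0.11 and Pbsn -0.03 (limma, adjusted p = 0.73, 0.58, 0.69, 0.84, 0.79 and 0.93). Crisp1, Gpx5, Cst8, Spag11a and Rnase9 of this list were not tested. Of the 5 testis markers tested 0 passed limma's adjusted threshold and 1 had an unadjusted p under 0.05. That one was Prm2, a protamine of sperm, at -0.65 and negative on all 6 arrays (limma, adjusted p = 0.053). Ratios give no level, so how much male tract RNA each pool held is not known from these values, and its part in the Serpina1f ratio was not tested.

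Of 9 liver markers, the tissue of most plasma serpins, 9 were tested and 0 passed limma's adjusted threshold, with 1 at an unadjusted p under 0.05 and a median of 0.0062. The 4 adipocyte markers tested had a median of 0.37 and the 4 macrophage markers -0.04, and 0 of either passed limma's adjusted threshold, with 2 and 0 at an unadjusted p under 0.05. Over all genes these shares were 3.05% and 18.4%.

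**Figure D5:**
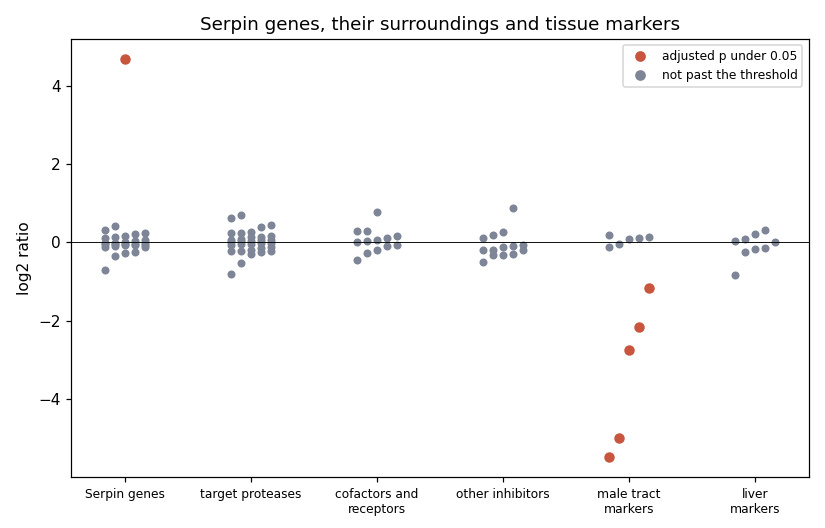
Mean log2 ratio of each gene (points) in the Serpin family, in 3 lists of proteases, cofactors and other inhibitors, and in male tract and liver markers; red points have an adjusted p under 0.05. The red points are Serpina1f at 4.68 and 5 male tract genes between -5.47 and -1.16.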

How the data were processed

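Pooled epididymal fat RNA was labelled with fluorescein (Cy3) or biotin (Cy5), amplified with tyramide, scanned and quantified in QuantArray, per the labels. The deposited values are log ratios, taken as log2 here, which the authors scaled between dyes and smoothed by LOWESS with in-house software, per the labels. The sources used here name neither the log base, the numerator, the background correction nor the spot filter. Ratios carry no intensity, so the signal behind them is unknown, and the number of arrays limits precision.

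Deposited rows do not correspond between arrays. Each column was placed on probe numbers with a hidden Markov model in which columns only lose spots (Python 3.11.15, NumPy 2.4.6). It predicted normal scores clipped at 3 from the other arrays in 3 rounds. Values with a posterior of at least 0.95 were kept, which left 98.4%, 65.0%, 96.9%, 92.5%, 99.7% and 99.8% of probe numbers on arrays 1 to 6. Spearman's rho averaged 0.28 within orientations and 0.11 across them.

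Gene values are means of probes with 1 symbol (14711 of 19200 probe numbers). limma 3.58.1 (R 4.3.3) fitted a common ratio and a channel term to genes with at least 4 arrays, with Benjamini-Hochberg adjustment over all genes. All Serpin genes are named, and of the other lists those passing plus those with the largest ratios. The members and lists were chosen with earlier results of these data known. No fit could use each slide's lot, since every array has its own. A planned comparison of protein sequences was not run.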

Additional observations from a re-analysis of the deposited data

Results flagged for a closer look

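Serpinb1a and Serpinh1 had 1 sign on every array of one orientation and the opposite sign on every array of the other. Serpinb1a averaged -0.14 over the arrays that held the CL-316,243 pool in channel 1 and 0.46 over those that held it in channel 2, a difference of -0.60 (limma's channel term, adjusted p = 0.44). For Serpinh1 the means were -0.29 and 0.18, a difference of -0.47 (limma's channel term, adjusted p = 0.48). Neither difference passed the threshold, and their mean ratios over all arrays were 0.16 and -0.06. No single array of a Serpin gene passed Dixon's 95% criterion. Closest to it were Serpinb6c on array 4, at -1.03, and Serpinc1 on array 6, at -0.71, with gaps of 0.61 and 0.59 of the range against a critical value of 0.625.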

How the results depend on the processing

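The count of 1 Serpin gene past the threshold held under the other settings run, except for these. It was 0 with rows as deposited, where 0 of 13409 genes passed (489 at an unadjusted p under 0.05) and the Serpina1f row had a log2 ratio of -0.0085. Those rows do not correspond between arrays, and by the placement the Serpina1f row then holds values of other probes. That setting therefore does not test Serpina1f. The count was also 0 with the sign of the channel 1 arrays turned, where 1 gene of 13192 passed and Serpina1f had 0.26 (limma, adjusted p = 0.84). That setting repeats the channel term of the main fit with its sign reversed. Leaving out 1 array in turn gave 1 to 2, the second being Serpinb6b without array 3. The count of Serpin genes at least 1.5-fold in size with one sign on every array was 0 with rows as deposited and 1 to 2 without 1 array, the second being Serpinb6b without array 5 (-0.84). The protease and cofactor count was 0 to 1 without 1 array, the 1 being Anxa2 without array 1. Serpina1f stayed between 4.29 and 5.24 without 1 array (limma, adjusted p = 3.34e-05 to 0.00745). Of 529 values of the other 27 genes under 20 settings, 1 passed. The count over all genes, 402, moved to 141, 206 and 123 without arrays 1, 4 and 5, to 52 and 202 with the CL-316,243 pool in channel 1 or channel 2 alone, to 241 with placement on absolute values, to 1182 with robust regression, and to 181 without arrays 2 and 3, a setting chosen after seeing the data. Each value already compares the 2 pools on 1 array. No further pairing of arrays was possible because all arrays carry the same 2 pools and no replicate number is shared. Protein identity between members was not run.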
